A study of Macaca fascicularis with 20 samples.

Results

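The miR-379/miR-410 cluster is the large distal group of microRNAs (miRNAs) in the imprinted DLK1-DIO3 domain, on human chromosome band 14q32. Its members were chosen by name, from a list of 40 hairpin names, among the names that both deposited tables of the fetal macaque cortex share. This gave 39 hairpin names and, with a 5p and a 3p arm each, 78 of 1656 arms (miR-323 and miR-323a of the list both match the 1 name miR-323). The tables spell the names as mir-376c, mir-487b, mir-323 and mir-495, and the usual miR- spelling with the arm is used below. The choice was made by name and not by level.

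As background, the hairpins of the cluster are cut from long noncoding transcripts made from the maternal chromosome, in placental mammals only. Each hairpin yields a 5p and a 3p arm, and the arm loaded into Argonaute pairs through its seed with messenger RNAs and represses them. In the brain the cluster is known from neurons: the neuronal factor Mef2 drives its transcription in cultured neurons, miR-134-5p limits dendritic spine size by repressing Limk1, and miR-369-3p, miR-496 and miR-543 of the mouse cluster repress N-cadherin in cortical progenitors. The names miR-376a, miR-376b and miR-376c, and likewise miR-323 with miR-323b and miR-487a with miR-487b, belong to hairpins of similar sequence. The split of counts within each of these families is uncertain, since no source used here says how reads that match several of them were counted.

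Small RNA was sequenced from crab-eating macaque (Macaca fascicularis) fetal visual cortex, cut by laser into 7 regions. These were the ventricular zone (VZ), the germinal layer at the ventricle where radial glia divide, the outer subventricular zone (OSVZ), a basal germinal layer, and the cortical plate (CP), the layer in which newly born neurons come to rest. Each was taken in areas 17 and 18, with the OSVZ of area 17 taken as an apical part (OSVZ_17int) and a basal part (OSVZ_17ext). Set 1 (replicate 1 of each region) is from embryonic day 80 and set 2 (replicate 2) from day 79, so each region had 2 libraries. VZ and CP had 4 libraries each and OSVZ had 6. No treatment or genetic change is named in the labels, and they do not say how many fetuses a set was cut from.

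Library totals ran from 3603478 to 9517217 counts, and levels are given as CPM, the count of an arm as a share of the library's TMM-scaled total, with scaling factors between 0.567 and 1.51. The factors went with the set, at 1.04 to 1.51 in set 2 and 0.567 to 0.808 in set 1, except VZ_18 replicate 1 of set 1 at 1.32. The summed neuronal miRNAs followed the labels. The 18 arms, such as those of miR-137, miR-138 and miR-139, summed to 2947 to 4327 CPM in VZ, 2740 to 5767 CPM in OSVZ and 16653 to 24684 CPM in CP. A large part of this was miR-139-5p, with means of 1023 CPM in VZ, 2090 CPM in OSVZ and 10219 CPM in CP. The progenitor list of 6 arms (those of miR-92b, miR-17 and miR-106b) was split. miR-92b-3p, a radial glia miRNA, had means of 38823 CPM in VZ, 18918 CPM in OSVZ and 786 CPM in CP, but miR-17-3p was lower in VZ than in CP (-1.46 ± 0.43 on the log2 scale, adjusted p = 0.0259 by edgeR). Without the miR-92b arms the list summed to 5939 to 13851 CPM in VZ and 9611 to 16503 CPM in CP, with overlap. VZ_18 replicate 1 stood apart. Its erythroid arms summed to 334 CPM, against 18.9 to 128 CPM in the 13 other libraries, so calls, counts of calls and medians of the members that touch VZ are also given without it.

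The cluster was a small part of the small RNA of every region. All 78 arms together took 0.0537% to 0.250% of the counts in VZ, 0.0338% to 0.160% in OSVZ and 0.0861% to 0.421% in CP, with overlap. Within each set, every OSVZ library lay below every CP library. In set 1 the OSVZ shares were at most 0.0684% and the CP shares at least 0.0861%, and in set 2 they were at most 0.160% and at least 0.252%. The VZ shares of set 1, at 0.0537% and 0.250%, reached into the range of OSVZ and past that of CP, and those of set 2, at 0.174% and 0.202%, lay between both. On the CPM scale the summed level was 1328 ± 480 CPM in VZ (SD, n = 4), 899 ± 170 CPM in OSVZ (SD, n = 6) and 2490 ± 1117 CPM in CP (SD, n = 4). All 6 OSVZ libraries, at 596 to 1077 CPM, were below all 4 CP libraries, at 1422 to 4061 CPM. The VZ libraries, at 725, 1299, 1389 and 1897 CPM, overlapped with both. In tissue pieces like these, fewer cells that express a miRNA and less of it per cell cannot be told apart.

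**Figure D1:**
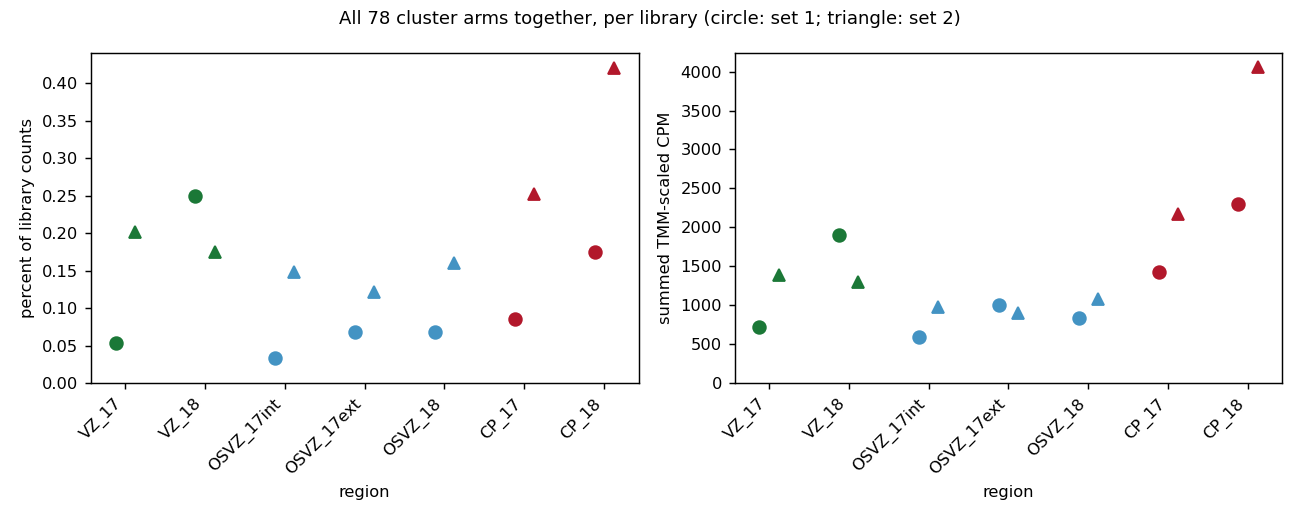
Summed level of the 78 arms of the cluster in each library, by region, as the percent of the library's counts (left axis) and as summed TMM-scaled CPM (right axis); circles are set 1 and triangles set 2. Within each set and on both scales the OSVZ points lie below the CP points, and the highest point is CP_18 replicate 2, at 0.421% and 4061 CPM.

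A few arms carried most of this level. The 5 arms with a mean above 100 CPM, miR-376c-3p (228 CPM), miR-487b-3p (200 CPM), miR-323-3p (120 CPM), miR-495-3p (115 CPM) and miR-409-3p (113 CPM), held 52.6% of it and ranked 133 to 168 among all 1656 arms by mean CPM. The next 7 were miR-382-5p (81.9 CPM), miR-543-3p (76.5 CPM), miR-299-5p (53.6 CPM), miR-376a-3p (45.3 CPM), miR-654-3p (42.1 CPM), miR-379-5p (30.2 CPM) and miR-485-3p (30.1 CPM). At the other end, 54 arms were under 10 CPM and 20 under 1 CPM. A filter on low counts kept 65 arms for testing and removed 13, the highest of them at a mean of 0.671 CPM. Both arms of miR-1197 were among those removed. Counts of different arms were compared with no correction for how well each sequence is captured in a library.

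**Figure D2:**
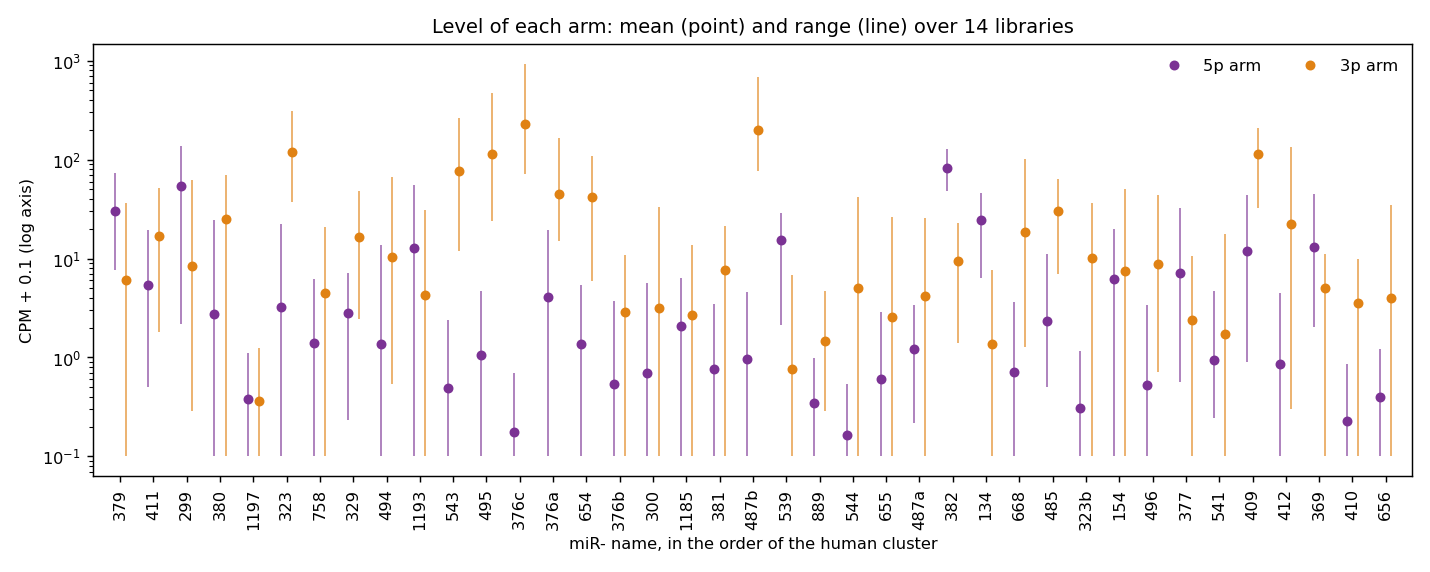
Mean level (point) and range (line) of each arm over the 14 libraries, in CPM plus 0.1 on a log axis, with the 39 hairpin names in the order of the human cluster; 5p arms are purple and 3p arms orange. Arms of 100 CPM or more stand beside hairpins of which neither arm reaches 10 CPM, and the 3p point is the higher one for most names.

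The 3p arm was the more abundant one for most hairpins. Of the 23 hairpins with an arm of at least 10 CPM, 16 (69.6%) had more 3p than 5p, where among hairpins outside the cluster it was 103 of 255 (40.4%). The order held in all 14 libraries for 9 of the 16, where outside the cluster it held for 69 of the 103. Among the 9 were miR-376c (8 counts of the 5p and 22159 of the 3p arm over all libraries), miR-487b (69 and 18632) and miR-543 (30 and 7659). In the other 7 hairpins, miR-379, miR-299, miR-382, miR-134, miR-539, miR-1193 and miR-369, the 5p arm had the higher mean. It was higher in every library for miR-382 and miR-134, where outside the cluster this held for 103 of 152 hairpins. For miR-1193 the order differed between the sets, with 1129 counts of the 5p and 56 of the 3p arm in set 1, and 7 and 371 in set 2. miR-382 had 7608 counts of the 5p and 896 of the 3p arm, and miR-134 had 2409 and 117.

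VZ was compared with CP to ask which miRNAs differ between dividing radial glia and young neurons. Of the 65 tested arms of the cluster, 4 were lower in VZ and 0 higher by edgeR's quasi-likelihood test (Benjamini-Hochberg adjusted p under 0.05 over all 1139 tested arms). This is 6.15% of the members, where 7.37% of all tested arms were called (4.74% lower and 2.63% higher). The called share of the cluster is near the background. By the same test, 16 of the 65 members and 243 of all 1139 tested arms had an unadjusted p under 0.05. Without VZ_18 replicate 1, 2 members were called, miR-376c-3p and miR-323-3p, where 64 of all 1139 tested arms were called. DESeq2 called 12 members (9 lower and 3 higher), where it called 19.3% of all arms with an adjusted p. The 4 arms called by edgeR over all libraries were miR-487b-3p, miR-376c-3p, miR-323-3p and miR-323b-3p, all of them 3p arms.

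miR-487b-3p was at 99.6 and 120 CPM in VZ_17, 96.0 and 168 CPM in VZ_18, 284 and 342 CPM in CP_17 and 364 and 676 CPM in CP_18 (replicates 1 and 2). Every VZ library was below every CP library. The log2 difference was -1.74 ± 0.43 (SE, adjusted p = 0.00587 by edgeR), with -1.71 in set 1 and -1.76 in set 2. The call was lost in 5 of 22 alternative settings, the weakest of them without VZ_18 replicate 1 (-1.41, adjusted p = 0.101).

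miR-376c-3p, the most abundant arm of the cluster, was at 82.4 and 80.8 CPM in VZ_17, 215 and 173 CPM in VZ_18, 130 and 399 CPM in CP_17 and 529 and 932 CPM in CP_18. CP_17 replicate 1 was below both VZ_18 libraries, and the other CP libraries were above all VZ libraries. The log2 difference was -1.71 ± 0.43 (SE, adjusted p = 0.00854 by edgeR), with -0.98 in set 1 and -2.36 in set 2. This call was also lost in 5 settings, the weakest without CP_17 replicate 2 (-1.32, adjusted p = 0.139), and it held without VZ_18 replicate 1 (-1.72, adjusted p = 0.0346).

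miR-323-3p was at 48.2 and 58.2 CPM in VZ_17, 162 and 64.4 CPM in VZ_18, 182 and 256 CPM in CP_17 and 216 and 312 CPM in CP_18. The groups did not overlap, and VZ_18 replicate 1 was the VZ library nearest to CP. The log2 difference was -1.64 ± 0.48 (SE, adjusted p = 0.0259 by edgeR), and without VZ_18 replicate 1 it was -1.86 (adjusted p = 0.0419). It was lost in 10 settings, the weakest with library totals (-1.07, adjusted p = 0.240), and among them no replicate block (-1.63, adjusted p = 0.0557) and counts summed per set and zone (-1.38, adjusted p = 0.133).

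miR-323b-3p is a scarce arm, with 7, 0, 13 and 20 counts in the VZ libraries and 100, 185, 163 and 205 counts in the CP libraries (VZ_17, then VZ_18, and CP_17, then CP_18, replicate 1 before 2). This is 1.40 ± 1.19 CPM for VZ and 26.8 ± 6.43 CPM for CP (SD, n = 4 each), with no overlap. The log2 difference of -4.46 ± 1.26 (SE, adjusted p = 0.0216 by edgeR) carries a 95% interval from -7.02 to -1.90. It was lost in 8 settings, the weakest without VZ_18 replicate 1 (-3.92, adjusted p = 0.107), and also with no replicate block (adjusted p = 0.0607).

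Among the other abundant members, miR-654-3p (-1.75 ± 0.65, adjusted p = 0.105 by edgeR), miR-495-3p (-1.30 ± 0.48, adjusted p = 0.108) and miR-376a-3p (-1.43 ± 0.60, adjusted p = 0.169) had negative log2 differences between VZ and CP that did not pass, and none of the 3 passed without VZ_18 replicate 1 (adjusted p from 0.178 to 0.347). miR-409-3p had 157 ± 57.1 CPM in VZ and 117 ± 40.5 CPM in CP (SD, n = 4 each), with a log2 difference of 0.44 and a 95% interval from -0.50 to 1.38. miR-134-5p, the dendritic spine miRNA, was at 33.0 ± 10.8 CPM and 29.6 ± 3.72 CPM, with a log2 difference of 0.17 and an interval from -1.36 to 1.69. For miR-543-3p, the N-cadherin repressor, the log2 difference was -0.13 with an interval from -1.18 to 0.92, and its sign turned to positive with DESeq2 size factors (0.13) and with library totals (0.44).

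The median log2 difference between VZ and CP was -0.37 over the 65 tested members and -0.22 over all tested arms, with 41 of 65 members below 0. With library totals in place of TMM these medians were 0.13 and 0.21, and with DESeq2 size factors -0.14 and 0.023, so the direction of the cluster's median flips with the scaling while it stays below that of all arms. Without VZ_18 replicate 1 the medians were -0.93 and -0.44. Of the 24 members of at least 10 CPM, 8 (33.3%) had every VZ library below every CP library and 0 had every one above. Over all 379 tested arms of that level the share below was 17.2%. Without VZ_18 replicate 1 it was 9 of the 24 (37.5%) and 18.7% of the 379. The 8 arms in all libraries were the called ones except miR-376c-3p, with miR-299-5p, miR-379-5p, miR-380-3p, miR-654-3p and miR-329-3p, the last named after its values were seen.

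Many scarce members had their highest level in 1 library. VZ_18 replicate 1 was the highest of the 14 libraries for 17 of the 41 tested members under 10 CPM (41.5%), where it was the highest for 21.1% of all tested arms of that level. The 54 members under 10 CPM summed to 527 CPM there, and to 56.8 to 240.0 CPM in the 13 other libraries. The same library held 334 CPM of erythroid arms, and the part of this in the members' values was not tested. miR-494-3p, which had the smallest p among members of at least 10 CPM with a difference above 0 in VZ against CP (2.98 ± 1.21, adjusted p = 0.146 by edgeR), was at 66.7 CPM in VZ_18 replicate 1 and at 4.09, 28.8 and 0.435 CPM in the other VZ libraries, and without that library its difference was -0.20. Among the scarce members miR-377-3p, named after its values were seen, had a smaller p (adjusted p = 0.111 by edgeR). It had 6, 64, 112 and 17 counts in the VZ libraries, at 1.29 to 10.4 CPM, and 0, 1, 3 and 1 counts in the CP libraries, at up to 0.664 CPM, so that every VZ library was above every CP library.

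OSVZ was compared with CP for the same question in the basal germinal layer. Of the 65 tested members 6 were lower in OSVZ and 0 higher by edgeR (9.23%), where 6.32% of all tested arms were called (4.21% lower and 2.11% higher). An unadjusted p under 0.05 by edgeR was found for 15 members and for 177 of all 1139 tested arms. DESeq2 called 9 members, where it called 14.9% of all arms with an adjusted p. The 6 were miR-376c-3p, miR-487b-3p, miR-323-3p, miR-495-3p, miR-299-5p and miR-323b-3p. Both comparisons share the 4 CP libraries.

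miR-376c-3p had a lowest, median and highest level of 70.6, 106 and 154 CPM in OSVZ, against 130, 399, 529 and 932 CPM in CP. Only CP_17 replicate 1, at 130 CPM, was within the range of OSVZ. The log2 difference was -1.92 ± 0.40 (SE, adjusted p = 0.00126 by edgeR), with -1.42 in set 1 and -2.30 in set 2.

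miR-487b-3p had a lowest, median and highest level of 77.1, 98.9 and 148 CPM in OSVZ, all below the 284 CPM of the lowest CP library. The log2 difference was -1.88 ± 0.39 (SE, adjusted p = 0.00132 by edgeR). For these 2 arms the OSVZ call held in each of the 22 alternative settings, with log2 differences from -2.17 to -1.51 for miR-376c-3p and from -2.04 to -1.62 for miR-487b-3p.

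miR-323-3p, at 37.4, 60.9 and 100 CPM (lowest, median, highest), was also below every CP library, and its log2 difference was -1.88 ± 0.44 (SE, adjusted p = 0.00402 by edgeR). The call ended without OSVZ_18 replicate 2 (-1.52, adjusted p = 0.155) and with counts summed per set and zone (-1.90, adjusted p = 0.0515).

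miR-495-3p, which represses Bdnf, was at 23.7, 63.9 and 127 CPM in OSVZ and at 88.4, 148, 198 and 475 CPM in CP. The highest OSVZ library, OSVZ_18 replicate 2, was above CP_17 replicate 1. The log2 difference was -1.70 ± 0.44 (SE, adjusted p = 0.0120 by edgeR), and the call was lost in 8 of 22 settings, among them no replicate block (adjusted p = 0.0902), counts summed per set and zone (-1.79, adjusted p = 0.0672) and OSVZ_18 replicate 1 left out (adjusted p = 0.187).

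miR-299-5p was the only 5p arm among the called members, at 2.07, 34.9 and 49.9 CPM in OSVZ and 74.3, 83.5, 120 and 137 CPM in CP, without overlap. Its log2 difference was -2.10 ± 0.57 (SE, adjusted p = 0.0171 by edgeR), and the call was lost in 7 settings, with OSVZ_18 replicate 2 left out as the weakest (-1.98, adjusted p = 0.176). miR-323b-3p was at 0, 5.67 and 10.5 CPM in OSVZ and at 22.0 to 36.1 CPM in CP, with a log2 difference of -4.02 ± 1.16 (SE, adjusted p = 0.0270 by edgeR). It lost the call in 11 settings, the weakest of them counts summed per set and zone (-2.48, adjusted p = 0.270), and also with no replicate block (adjusted p = 0.0625).

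**Figure D3:**
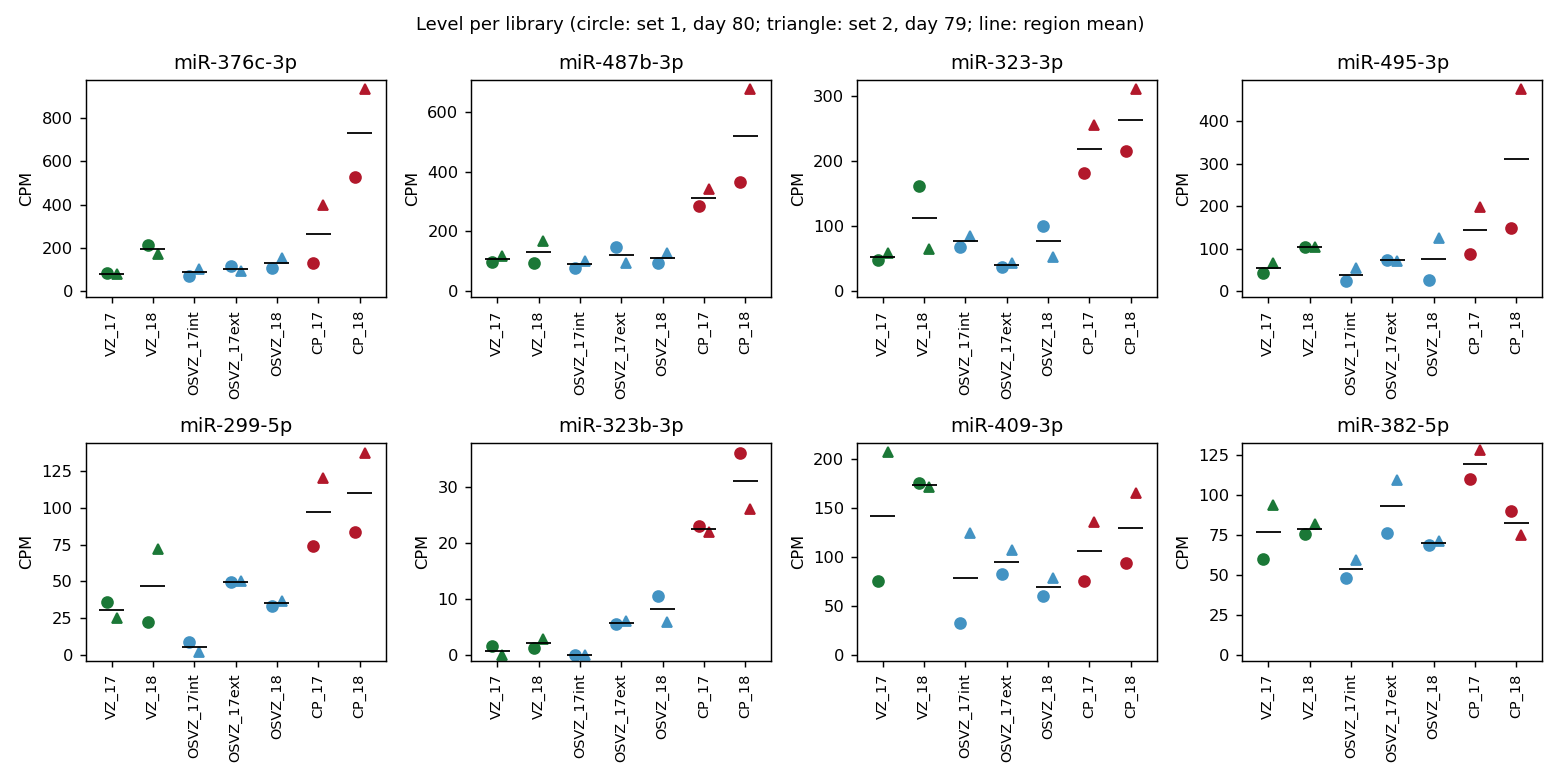
Level in CPM of 8 members in every library, by region (circles set 1, triangles set 2, line the mean of the region): the 6 arms called in OSVZ against CP, then miR-409-3p and miR-382-5p, which were not called. In the panels of miR-487b-3p, miR-323-3p, miR-299-5p and miR-323b-3p all CP points lie above all OSVZ points, and in the last pair the zones overlap.

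Most members had a negative difference in this comparison. Their median log2 difference between OSVZ and CP was -1.12, against -0.20 over all tested arms, and 52 of 65 (80%) were below 0, against 54.7% of all tested arms. The gap between both medians was -0.92 with TMM, -0.90 with DESeq2 size factors and -0.93 with library totals. Of the 24 members of at least 10 CPM 22 were below 0, with a median of -1.26. All OSVZ libraries were below all CP libraries for 7 of these 24 (29.2%), where it was 13.2% of all 379 arms of that level. Without miR-376c-3p, miR-487b-3p, miR-323-3p and miR-495-3p the other 74 arms summed to 356 to 635 CPM in OSVZ and 737 to 1666 CPM in CP, still without overlap.

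miR-409-3p and miR-382-5p, both among the 6 most abundant members, were not called. miR-409-3p was at 80.7 ± 32.7 CPM in OSVZ (SD, n = 6) and 117 ± 40.5 CPM in CP (SD, n = 4), with a log2 difference of -0.59 and a 95% interval from -1.46 to 0.29. miR-382-5p was at 72.1 ± 21.0 CPM and 101 ± 23.3 CPM, with a log2 difference of -0.51 and an interval from -1.40 to 0.39. The 2 members of at least 10 CPM above 0 were miR-1193-5p (1.06 ± 1.23, adjusted p = 0.790 by edgeR) and miR-494-3p (0.88 ± 1.09, adjusted p = 0.805).

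**Figure D4:**
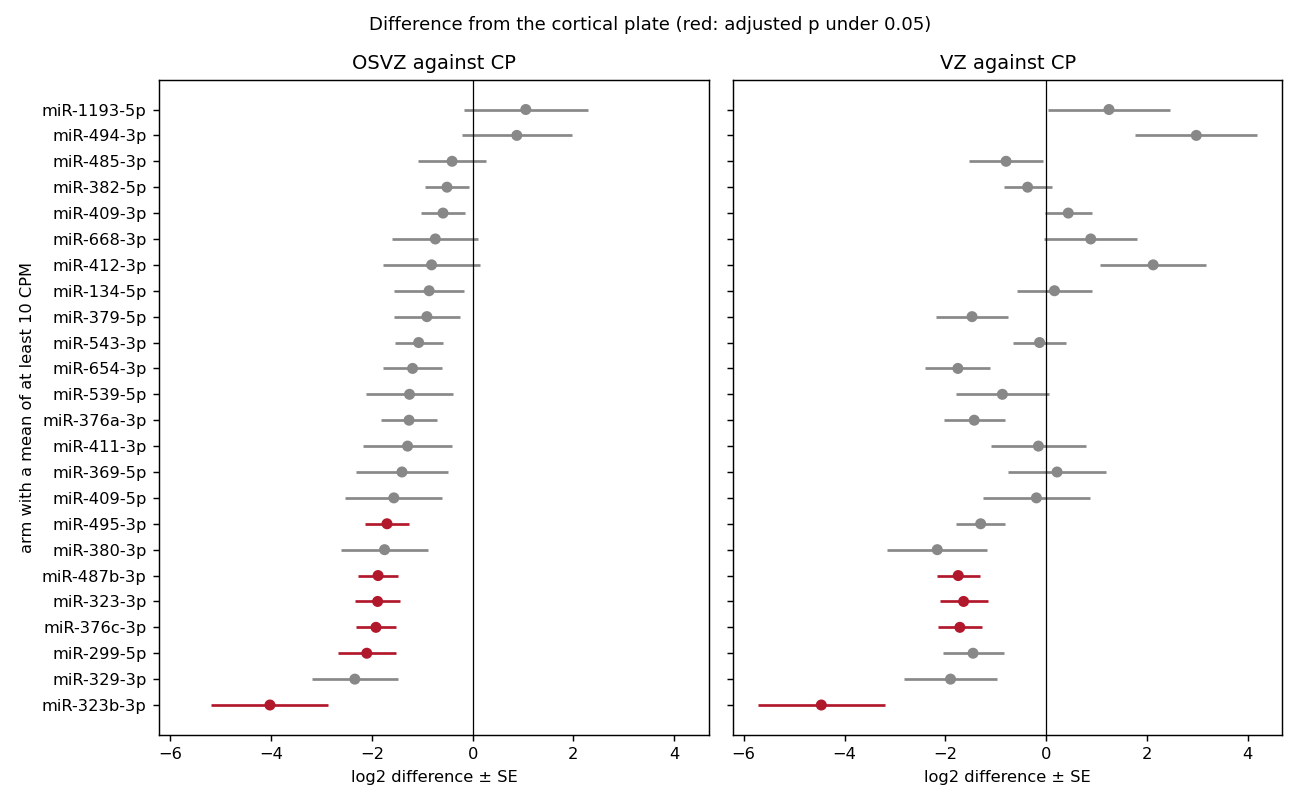
Log2 difference ± SE from the cortical plate for the 24 members of at least 10 CPM, in OSVZ (left) and VZ (right); red marks an adjusted p under 0.05. In OSVZ 22 of the 24 points are below 0 and 6 are red, and in VZ 17 are below 0 and 4 are red.

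Markers of other cells moved with the same comparisons. Of 17 tested neuronal arms 8 were lower in VZ than in CP and 10 lower in OSVZ than in CP, with 0 higher in either, and all 17 were below 0 in both. In the myeloid and lymphoid list of 10 tested arms, 2 arms were higher in VZ than in CP, miR-223-3p and miR-155-5p, and the latter also in OSVZ. The summed level of that list was 861 to 1059 CPM in VZ, 737 to 1283 CPM in OSVZ and 464 to 525 CPM in CP. The choroid plexus and pigment epithelium list summed to 4946 to 7253 CPM in CP and to 166 to 1953 CPM in the germinal libraries, most of it miR-204-5p. The oligodendrocyte list of 4 arms summed to 115 to 317 CPM in VZ, 97.5 to 158 CPM in OSVZ and 398 to 766 CPM in CP. Both arms of miR-338 were called lower in each germinal layer than in CP, and miR-219-3p higher in VZ. The mesenchymal and mural list summed to 969 to 1957 CPM in VZ, 1419 to 4937 CPM in OSVZ and 733 to 1175 CPM in CP. Against CP, miR-214-3p passed as higher in VZ and in OSVZ and miR-145-5p in OSVZ, while miR-199b-5p passed as lower in both layers. The part of these lists in the members' differences was not tested.

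The neighbouring proximal group of the same domain gave 1 call. Its tested arms were 17, from miR-770, miR-493, miR-337, miR-431, miR-433, miR-127, miR-432, miR-136 and miR-370, while the filter removed both arms of miR-665. Of the 17 only miR-433-5p was lower in VZ (-4.29 ± 1.22, adjusted p = 0.0216 by edgeR), and 0 passed in OSVZ against CP, where 2 had an unadjusted p under 0.05. miR-433-5p was at 0.215 to 2.17 CPM in VZ, 1.15 and 9.05 CPM in CP_17 and 97.4 and 51.9 CPM in CP_18 (replicates 1 and 2). CP_17 replicate 1 was within the range of VZ. The median log2 difference of the proximal group was -0.026 in VZ and -0.38 in OSVZ. Its summed level was 119 to 484 CPM in VZ, 119 to 193 CPM in OSVZ and 176 to 330 CPM in CP, so that all 3 zones overlapped. Whether both groups of the domain differ from each other was not tested. The list of other imprinted miRNAs also named miR-675, which had no arm among those shared by both sets. Of 7 tested arms of that list (from miR-335, miR-483, miR-296 and miR-298) 0 were called by edgeR against CP, where 3 had an unadjusted p under 0.05 in VZ and 4 in OSVZ. Over all 1139 tested arms these counts were 243 and 177.

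Between the germinal layers, edgeR called 0 of the 65 members in OSVZ against VZ and 0.0878% of all tested arms. By edgeR, 6 members and 113 of all 1139 tested arms had an unadjusted p under 0.05. Without VZ_18 replicate 1 it again called 0 members, and 0 of all 1139 tested arms. DESeq2 called 1 member, miR-376a-5p, where it called 3.12% of all arms with an adjusted p. Of the 24 members of at least 10 CPM, 0 had every OSVZ library below every VZ library, where it was 1.85% of all 379 arms of that level. Without VZ_18 replicate 1 these were 0 and 2.64%. The median log2 difference of the members was -0.44, against 0.12 over all tested arms, and without VZ_18 replicate 1 these were -0.038 and 0.27. miR-409-3p was at 75.0, 207, 175 and 172 CPM in VZ and at 32.6, 80.4 and 124 CPM in OSVZ (lowest, median, highest), with overlap and a log2 difference of -1.03 ± 0.43 (SE, adjusted p = 0.464 by edgeR), or -0.78 without VZ_18 replicate 1. miR-412-3p had the smallest p among the members of at least 10 CPM (-2.94 ± 0.9997, adjusted p = 0.371), with 0.430, 133, 25.5 and 13.6 CPM in the VZ libraries, and its value moved with single libraries. It was called without VZ_17 replicate 1 (-3.15, adjusted p = 0.0182), was -0.91 without VZ_17 replicate 2 and -0.66 without VZ_18 replicate 1, and turned to 0.61 without both of the latter. For arms called against CP, the 95% interval of the OSVZ minus VZ difference ran from -0.92 to 0.65 for miR-487b-3p, from -0.999 to 0.59 for miR-376c-3p and from -2.39 to 3.27 for the scarce miR-323b-3p on the log2 scale.

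Within the OSVZ of area 17, the apical part was compared with the basal part, with 2 libraries each. By edgeR 0 of 65 members were called and 0% of all tested arms, while 5 members and 46 of all 1139 tested arms had an unadjusted p under 0.05. DESeq2 called 2 members, miR-299-5p and miR-323b-3p, where it called 0.176% of all arms. miR-299-5p was at 8.50 and 2.07 CPM in OSVZ_17int and at 49.4 and 49.9 CPM in OSVZ_17ext, so that the apical libraries were lower in both sets (-3.20 ± 0.93, edgeR adjusted p = 0.925, DESeq2 adjusted p = 0.0137). miR-323b-3p had 0 and 0 counts in OSVZ_17int and 36 and 37 counts in OSVZ_17ext, where a count of 0 allows up to 3 counts (edgeR adjusted p = 0.925, DESeq2 adjusted p = 0.0137). Both arms are among those lower in OSVZ than in CP. Of the other arms named for their p, miR-380-3p was at 1.82 and 9.31 CPM in the apical and 37.1 and 25.5 CPM in the basal part (adjusted p = 0.938 by edgeR). miR-409-5p, the less abundant arm of its hairpin, was at 11.7 and 9.46 CPM in the apical and 1.38 and 0.808 CPM in the basal part (adjusted p = 0.938), in the opposite direction.

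Areas 17 and 18 were compared over all zones. By edgeR 0 of 65 members were called, where 0.0878% of all tested arms were called. Before adjustment, p was under 0.05 for 9 members and 99 of all 1139 tested arms by edgeR. DESeq2 called 2 members, miR-154-3p and miR-379-3p, where it called 2.1% of all arms with an adjusted p. The median log2 difference, area 17 minus area 18, was -0.69 over the members and -0.23 over all tested arms, with 50 of 65 members below 0. Without VZ_18 replicate 1 these medians were -0.12 and -0.00056. miR-376c-3p had the smallest p among the members of at least 10 CPM (-1.07 ± 0.33, adjusted p = 0.207 by edgeR).

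In the cortical plate alone, which does not hold that library, most of the abundant members had a higher level in area 18 in each set, without a call. Of the 24 members of at least 10 CPM, 18 (75.0%) were higher in CP_18 than in CP_17 in both sets and 2 (8.33%) were lower in both. Of all 379 arms of that level 35.1% were higher and 27.7% lower in both. By CPM of library totals, without TMM, 19 of 24 (79.2%) were higher, where it was 39.3% of the 379. In VZ, 10 of the 24 (41.7%) were higher in area 18 in both sets and 1 lower, where 24.0% and 21.6% of the 379 were. In OSVZ, 8 (33.3%) were higher and 3 lower, where 20.6% and 26.1% of the 379 were. miR-376c-3p was at 130 and 399 CPM in CP_17 and 529 and 932 CPM in CP_18, and miR-376a-3p at 29.2 and 45.1 CPM and 105 and 163 CPM. In a contrast of CP_17 with CP_18 in the same fit, added after the data were seen, edgeR called 0 of 65 members and 0 of 1139 arms. 2 members had an unadjusted p under 0.05, miR-376c-3p (-1.52 ± 0.60) and miR-376a-3p (-1.85 ± 0.86), each with an adjusted p of 0.994. Over all 1139 tested arms 36 had an unadjusted p under 0.05. CP_18 replicate 2 was the highest of the 14 libraries for 13 of the 24 members (54.2%), where it was the highest for 12.7% of the 379 arms. The difference between the zones was also tested against area: 0 members passed in the interaction of area with VZ minus CP (5 had an unadjusted p under 0.05) or with OSVZ minus CP (1 had), by edgeR. The same counts over all tested arms are not given here, so these member counts have no background to be read against.

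The balance of 3p to 5p counts within a hairpin was tested with limma for 223 names, 16 of them members. In VZ against CP 0% of the 223 names and 0 members passed, and in OSVZ against CP likewise 0% and 0. Before adjustment, p was under 0.05 for 38 names and 2 members in VZ, and for 19 names and 0 members in OSVZ. The members were miR-376a (log2 ratio of 3p over 5p lower by 4.56 ± 0.94 in VZ than in CP, adjusted p = 0.121) and miR-380 (adjusted p = 0.238), named here after their values were seen.

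The sets did not overlap for 1 of the 65 tested members, where they did not overlap for 2.19% of all tested arms. miR-1193-5p had 16 to 363 counts in each library of set 1, at 3.68 to 55.8 CPM, and 0 to 3 counts in each library of set 2, at up to 0.435 CPM. Sets differ in embryonic day and in the deposited table, and these cannot be told apart. Its 3p arm did not share this pattern, with 56 counts over set 1 and 371 over set 2.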

How the data were processed

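Read counts per miRNA name and arm were deposited by the authors as whole numbers, 1 table per set. Per the labels' protocols, RNA was taken from laser-cut regions with a Qiagen kit, and libraries were size-selected for miRNA with a SOLiD kit. Aligner, genome build, miRNA annotation and the handling of multi-mapping reads: not given in the sources used here. Columns were assigned to samples by how each table spells its regions. A further 12 value columns (6 libraries) could be matched to no label and stayed out, so 6 labelled samples are not analysed here.

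The members, the other lists and the alternatives were chosen with earlier results of these data known. Arms named are those called in a comparison, the 12 with the highest mean CPM, and in each comparison the 3 in each direction with the smallest p among members of at least 10 CPM. Both arms of a hairpin with a called ratio would also be named.

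The 828 names in both tables gave 1656 arms. filterByExpr by region kept 1139 (99.99% of counts). Counts were scaled by TMM and tested by the quasi-likelihood F test of edgeR 4.0.16 (R 4.3.3) in 1 fit of 7 region means with the set as a block (6 residual and 28.1 prior degrees of freedom), with Benjamini-Hochberg adjustment over the 1139 arms. VZ and CP are means of both areas, and OSVZ gives equal weight to area 18 and to area 17 (its 2 parts averaged). Values for a single set are differences of the means of log2(CPM + 0.5) over regions. Arm ratios were tested with limma 3.58.1 on log2((3p + 0.5)/(5p + 0.5)), for names with a mean of at least 100 counts over both arms and 5 counts of each. DESeq2 1.42.0 was an alternative. Each region has 2 libraries, and nothing in the labels says that they are separate animals, so the spread behind a p-value may be technical. As a check of the pairing, libraries of a set deviated together from the region means in 21 of 21 pairs of regions (median r 0.589, 0.209 to 0.733, over 379 arms). On simulated data of VZ against CP with 1139 arms, changes of 1, 2 and 3 on the log2 scale were given only to arms of at least 10 CPM. The test called 11.8%, 39.4% and 78.8% of these, and 0.639% of unchanged arms. Changes in scarcer arms and in other comparisons were not simulated. Depth was 3603478 to 9517217 counts per library, and reads carry no molecular identifiers, so counts are not counts of molecules. No miRNA sequences were used here.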

Additional observations from a re-analysis of the deposited data

Results flagged for a closer look

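In 7 of the 63 groups of 4 or 6 libraries examined (members named in the text, by zone), the highest or lowest library lay far from the others. The rule is set to flag about 1 in 20 groups of normally distributed values by chance. These groups hold CPM values that pool areas and sets, so their chance rate is not known. miR-668-3p did so in all 3 zones, at 101 CPM in VZ_17 replicate 2 (7.31 to 16.8 CPM in the other VZ libraries), at 29.4 CPM in OSVZ_17int replicate 2 (1.19 to 11.4 CPM in the others) and at 47.2 CPM in CP_18 replicate 2 (4.14 to 8.10 CPM in the others), each time in set 2. miR-543-3p was at 262 CPM in CP_18 replicate 2, where the other CP libraries were at 46.7 to 71.2 CPM. miR-323-3p was at 162 CPM in VZ_18 replicate 1, against 48.2 to 64.4 CPM in the other VZ libraries. miR-412-3p was at 47.0 CPM in OSVZ_17int replicate 2, against 0.202 to 12.9 CPM in the other OSVZ libraries. miR-494-3p was at 1.79 CPM in CP_17 replicate 2, below the 3.32 to 3.45 CPM of the other CP libraries.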

How the results depend on the processing

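Calls over all 1139 tested arms are given in brackets beside each count of members. The count of 4 members called in VZ against CP (84) became 2 with no replicate block (53) and 0 with library totals (69). It was 12 of 54 with the DESeq2 Wald test (9 lower and 3 higher, with 19.3% of all arms called). With no filter it was 1 (86 of 1651 arms), and 2 without VZ_17 replicate 2 and VZ_18 replicate 1 together (80). With single libraries left out it was 1 to 7 (53 to 120). It was 7 without VZ_17 replicate 1 (120), and 1 without VZ_17 replicate 2 (84) or CP_17 replicate 2 (53). It was 2 without VZ_18 replicate 1 (64), VZ_18 replicate 2 (73), CP_17 replicate 1 (61) or CP_18 replicate 2 (66), and 3 or 4 without any other (62 to 83). The count of 6 in OSVZ against CP (72) became 2 (43) on zone sums, which are counts summed per set and zone. With single libraries left out it was 3 to 7 (44 to 100). It was 3 without CP_17 replicate 1 (45), CP_17 replicate 2 (51), CP_18 replicate 2 (50), OSVZ_18 replicate 1 (48) or OSVZ_18 replicate 2 (44). The replicate block moved no other count by over 1.5 times. The counts of 0 became 1 in OSVZ against VZ, 2 in OSVZ_17int against OSVZ_17ext and 2 in area 17 against area 18 with DESeq2, where it called 3.12%, 0.176% and 2.1% of all arms. They became 1 with no filter for area 17 against area 18, where 11 of 1651 arms were called. With single libraries left out they were 0 to 2 for OSVZ against VZ and 0 to 2 for area 17 against area 18. The calls over all 1139 tested arms were then 0 to 24 in each of these comparisons. The count of member hairpins with a changed arm ratio in VZ against CP became 1 with a pseudocount of 5, where 3 of all 223 names passed.

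The called arms kept their direction in all settings run, and the call itself held in 12 of 22 settings for miR-323-3p, 14 for miR-323b-3p, 17 for miR-376c-3p and 17 for miR-487b-3p in VZ against CP. Signs turned for arms that were not called, where the cause was not tested. In VZ against CP, miR-543-3p was at 0.13 with DESeq2 size factors, 0.44 with library totals, 0.13 with DESeq2, 0.11 with no filter, 0.23 with arms of at least 10 CPM, 0.045 on zone sums and -0.38 to 0.21 with single libraries left out (above 0 without VZ_17 replicate 2, VZ_18 replicate 2, CP_17 replicate 1 or CP_18 replicate 2). miR-382-5p was at 0.099 with library totals, and in area 17 against area 18 at -0.091. With single libraries left out, miR-494-3p was at -0.20 to 3.46 in VZ against CP and -2.65 to 1.19 in OSVZ against VZ, turned both times by VZ_18 replicate 1. Without VZ_17 replicate 2 as well, miR-494-3p was at -0.89 and 1.91 and miR-412-3p at -1.28 and 0.61 in these comparisons. The same ranges were -0.56 to 1.56 for miR-1193-5p and -0.87 to 0.32 for miR-485-3p in OSVZ against CP, -0.27 to 0.70 for miR-485-3p in OSVZ against VZ and -0.98 to 1.56 for miR-134-5p in OSVZ_17int against OSVZ_17ext. In area 17 against area 18 they were -0.079 to 0.55 for miR-485-3p and -0.24 to 0.66 for miR-668-3p. In the cortical plate alone, an alternative chosen after seeing the data, miR-668-3p was at -1.63.

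With 2 libraries per region and a median biological coefficient of variation of 59.7% over arms of at least 10 CPM, edgeR called a 2-fold difference in VZ against CP for 11.8% of simulated arms. For members that edgeR did not call, that test detected no difference at this depth and replication, which does not show that they are equal. DESeq2 called 12 members in VZ against CP and 9 in OSVZ against CP, among them arms that edgeR did not call.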
